A study of Mus musculus with 10 samples.

Results

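The 53 genes described here are expressed across neurons of many kinds or encode parts of the synapse, and they were taken by name from a table of 21101 mouse genes. They were 4 neuronal transcription factors, 5 neuronal RNA-binding proteins, 10 proteins of the cytoskeleton, growth cone and soma, 7 adhesion molecules, 4 dense-core vesicle proteins, 9 synaptic vesicle proteins, 8 proteins of the release machinery and active zone, and 6 postsynaptic proteins. All 53 were found, and 47 passed the filter on low values, which kept 15660 genes. The 6 that did not pass were Nhlh1, Nhlh2, Myt1l, Stmn2, Cntnap2 and Sv2b.

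RNA was sequenced from mouse neural stem cell lines, all of them p53-null and transduced with IDH1(R132H), a mutant form of isocitrate dehydrogenase. Atrx-deleted lines (mA16d#4, mA19d#4 and mA19d#7) and control lines with Atrx (Control NSC#1 and Control NSC#2) were each sampled once per medium. This gave 3 Atrx-deleted and 2 control libraries after 8 days in differentiation medium, which was neural basal medium with B27 and no growth factors, and the same numbers in proliferation medium, where the growth factors EGF and bFGF were present at 20 ng/ml. The series asks what Atrx does in neuronal differentiation. A line is 1 culture-derived sample per medium, and nothing in the labels says how the lines were made or how they are related. The names mA19d#4 and mA19d#7 share a code that mA16d#4 lacks, and its meaning is not given. Whether these 2 lines have a common origin was not tested. P-values of the main test measure the spread of the 10 libraries within the 4 groups, and concern only these 5 lines. They treat the libraries of a line as independent, except in fits with the line as a block. The control libraries carry one sample-code prefix and the Atrx-deleted libraries another, and handling that followed it cannot be told apart from genotype. Levels are in TPM, transcript abundances scaled by transcript length and to the same total. Values of Atrx-deleted lines are always given in the order mA16d#4, mA19d#4 and mA19d#7, and those of control lines in the order NSC#1 and NSC#2.

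As a neural progenitor becomes a neuron, transcription factors such as Insm1 act during exit from the cycle, RNA-binding proteins of the Elavl, Celf and Rbfox families reshape splicing and mRNA stability, and microtubule proteins support neurites. Synaptic vesicles carry synapsins, synaptotagmins and synaptophysin, fuse through the SNARE proteins Snap25, Stx1a and Vamp2, and are organised at the active zone by Bsn, Pclo and Rims1. Dense-core vesicles carry granins and peptides in neurons and endocrine cells, and scaffolds such as Dlg4 and Homer1 hold receptors on the postsynaptic side. Many of these genes are kept low outside neurons by the repressor Rest.

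Facts of the libraries that touch every result come first. Atrx RNA ran from 42.8 to 74.0 TPM in Atrx-deleted libraries and from 127 to 163 TPM in control libraries. Quantile-normalised values keep no trace of depth, so levels are given without a counting error. The differentiation library labelled mA19d#7 stood apart. Over all tested genes its Spearman rho was 0.957 with the mA16d#4 proliferation library and 0.926 with the other mA19d#7 library, and over the 53 genes these values were 0.950 and 0.884. Gfap, an astrocyte filament gene, was at 1411 TPM in it and at most 79.5 TPM in the other 9 libraries. Whether its label is right was not tested, and every response of the line mA19d#7 to the medium rests on it. Results are therefore given with and without this library. In differentiation medium the summed level of 10 cycling-cell markers was 365, 829 and 699 TPM in Atrx-deleted lines, against 123 and 124 TPM in control lines. In proliferation medium that sum was 1301, 954 and 791 TPM in Atrx-deleted lines and 1212 and 737 TPM in control lines. The sum of 10 astrocyte markers was 7436, 3960.1 and 5699 TPM in Atrx-deleted lines in differentiation medium, against 9634 and 10603 TPM in control lines. Marker sums ran from 3.53 to 18.2 TPM for microglia and macrophages and from 4.36 to 11.3 TPM for endothelial, mural and fibroblast cells, with Cx3cr1, Cdh5 and Cldn5 below 0.05 TPM in all 10 libraries. In these bulk libraries, fewer cells of a type and less RNA per cell cannot be told apart.

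The genes spanned a wide range of levels. Of the 53 genes, 21 were at or above 10 TPM in all 10 libraries (39.6%, against 43.0% of all genes), and 6 were at or above 100 TPM in all of them (11.3%, against 6.23%). Those 6 were Map2, Dpysl3, Ank2, Uchl1, Ncam1 and Vamp2. At the other end, 11 genes stayed below 5 TPM in every library (20.8%, against 36.5%), among them Stmn2, Snap25, L1cam, Cntnap2, Rab3c and Shank1. Stmn2, a stathmin of growing axons, had at most 0.324 TPM, and Snap25, a SNARE protein of nerve terminals, had at most 3.38 TPM. The 10 housekeeping genes were never below 19.9 TPM, and the cause of the low values of members was not tested. Genes used as markers of neurons lay at both ends: Stmn2 was below 1 TPM in all 10 libraries and Rbfox3 reached 12.7 TPM, while Camk2a reached 32.8 TPM, Mapt 218 TPM and Map2 903 TPM. The share of neurons in the cultures was not measured.

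**Figure D1:**
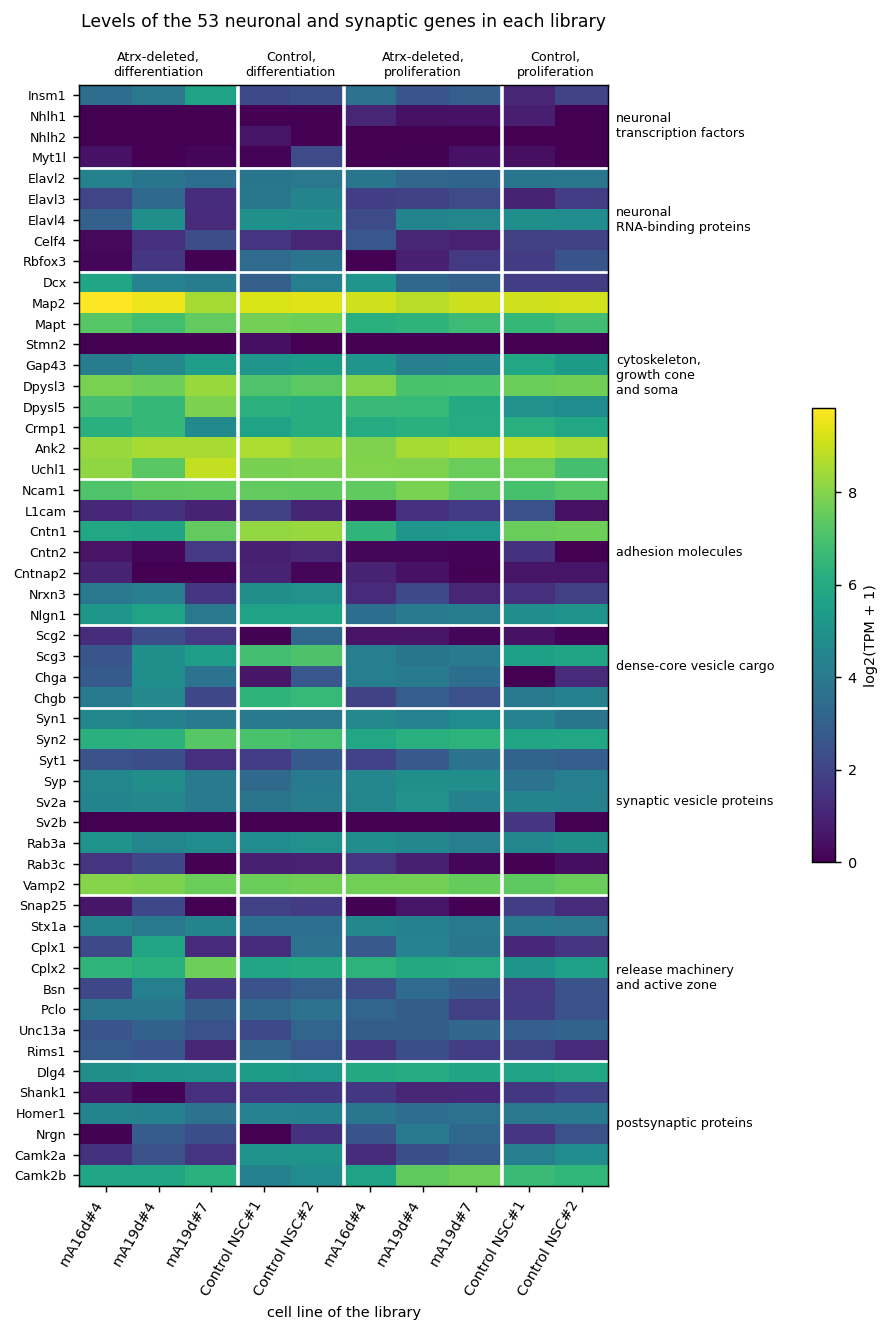
Level of each of the 53 genes as log2(TPM + 1), with genes in rows by role and the 10 libraries in columns by group and line. Map2 runs from 358 to 903 TPM, while Stmn2 stays at or below 0.324 TPM in every library.

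Promoter windows were available for 42 of the 53 genes, as 75 windows of 300 bases that run from 250 bases before to 50 after a RefSeq start (GRCm38.p6). The windows of these genes held a median of 13 CpG dinucleotides, from 0 to 51, against a median of 19 in the 14793 windows of tested genes. The E-box CAGCTG, a form bound by basic helix-loop-helix factors, was in 28.0% of the 75 windows and in 16.3% of all 32851 windows. The cAMP response element TGACGTCA was in 3 of the 75 windows (4.0%, against 1.79% of all), those of Chgb, Scg2 and Syn1. The TATA box letters TATAAA were in 10.7% of them and 13.6% of all. Both strands were searched, and no match of one motif overlapped a match of another in the windows shown for 4 genes. Transcribed spans were long, with a median of 69.0 kb over the 53 genes against 23.3 kb over tested genes with a span, and reached 2240.0 kb in Cntnap2, 1610.0 kb in Nrxn3 and 906 kb in Nlgn1.

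Windows are shown for 4 genes whose levels carry the comparisons: Elavl3 and Rbfox3, which differed between media or genotypes, and the granins Chga and Chgb, whose genotype differences had opposite signs. Capitals mark the motif matches, all sequences read 5′ to 3′ on the gene's strand, and they come from RefSeq. They lie at chr9:22051974-22052273 on the minus strand for Elavl3, chr11:118760992-118761291 on the minus strand for Rbfox3, chr12:102554691-102554990 on the plus strand for Chga and chr2:132781392-132781691 on the plus strand for Chgb. The Rbfox3 and Chgb windows are at starts inside the annotated spans of their genes.
Elavl3: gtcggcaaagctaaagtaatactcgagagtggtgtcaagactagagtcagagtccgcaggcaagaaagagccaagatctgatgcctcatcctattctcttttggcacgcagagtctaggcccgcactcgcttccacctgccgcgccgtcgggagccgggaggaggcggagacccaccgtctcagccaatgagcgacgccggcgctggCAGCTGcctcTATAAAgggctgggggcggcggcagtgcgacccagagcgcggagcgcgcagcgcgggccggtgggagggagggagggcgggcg
Rbfox3: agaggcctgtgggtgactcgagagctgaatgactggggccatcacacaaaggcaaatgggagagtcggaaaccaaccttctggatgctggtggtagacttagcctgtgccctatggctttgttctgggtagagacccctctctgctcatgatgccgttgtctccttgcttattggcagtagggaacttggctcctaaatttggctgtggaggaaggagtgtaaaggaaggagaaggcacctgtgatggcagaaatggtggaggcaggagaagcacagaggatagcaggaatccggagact
Chga: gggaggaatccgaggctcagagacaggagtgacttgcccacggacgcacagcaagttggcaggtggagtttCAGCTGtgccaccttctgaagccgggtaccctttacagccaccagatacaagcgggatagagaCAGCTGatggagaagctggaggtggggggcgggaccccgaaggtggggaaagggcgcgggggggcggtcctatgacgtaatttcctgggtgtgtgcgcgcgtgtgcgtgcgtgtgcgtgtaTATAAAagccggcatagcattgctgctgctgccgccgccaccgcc
Chgb: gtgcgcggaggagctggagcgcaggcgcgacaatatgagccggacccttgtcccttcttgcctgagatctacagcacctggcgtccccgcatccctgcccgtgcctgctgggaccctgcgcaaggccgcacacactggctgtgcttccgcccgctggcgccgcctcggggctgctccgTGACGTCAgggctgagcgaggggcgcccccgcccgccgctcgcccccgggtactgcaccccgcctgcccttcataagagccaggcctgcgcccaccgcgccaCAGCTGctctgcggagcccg
The Elavl3 window holds 29 CpG, the Chgb window 31 and the Chga window 21, while the Rbfox3 window holds 4 and none of the 3 motifs. Elavl3, Chga and Chgb share the E-box, which is found 1 time in Elavl3, 2 times in Chga and 1 time in Chgb. The Elavl3 and Chga windows have the TATA letters, and only the Chgb window the exact letters TGACGTCA. The Chga window holds the similar letters tgacgtaa, which the search for exact letters does not count. The TATA letters of Chga and the E-box of Chgb lie after the start used, while both matches of Elavl3 lie before it. A match describes the letters of a window and is not evidence of binding.

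In differentiation medium 3 genes fell in Atrx-deleted relative to control lines, and none rose: Camk2a, Rbfox3 and Chgb. They were 3 of 47 tested members (6.38%), where 2.89% of all tested genes changed and 1.33% fell (limma on log2(TPM + 1), Benjamini-Hochberg adjusted p under 0.05 over all tested genes). Differences are on that log2 scale, which understates those of low genes. At an unadjusted p under 0.05 there were 16 members, against 20.2% of all tested genes. The libraries of the genotypes did not overlap for 21 of the 47, against 36.3% of all tested genes, with 9 genes above and 12 below the control lines. Both signs were common, with 21 of 47 positive and 26 negative, a median log2 difference of -0.07 and a median of 0.02 over all tested genes. With the mA19d#7 differentiation library left out 5 members fell, Camk2a, Rbfox3, Chgb, Scg3 and Cntn1, and 0 rose, where 5.97% of all genes changed and 2.71% fell. The count was 0 without either control differentiation library, 1 without either control proliferation library and 1 without the mA19d#4 proliferation library.

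In proliferation medium no member passed the limma test, where 0.46% of all tested genes did. At an unadjusted p under 0.05 there were 12 of 47 members, against 13.7% of all tested genes. The libraries of the genotypes did not overlap for 23 members, against 38.0% of all tested genes, with 11 above and 12 below the control lines. The median log2 difference was 0.09 over the members and -0.02 over all tested genes. Without the mA19d#7 differentiation library 4 members passed: Chgb at -1.73 (SE 0.321, adjusted p = 0.0370), Cntn1 at -1.99 (SE 0.323, adjusted p = 0.0247), Camk2a at -2.34 (SE 0.471, adjusted p = 0.0476) and Dpysl5 at 1.53 (SE 0.214, adjusted p = 0.0161), where 1.59% of all genes did. That library is in neither group of this comparison. The differences therefore stayed the same without it, and the estimate of spread shared by all groups changed. Scg3 passed alone when the mA16d#4 differentiation library was left out, and Camk2a alone when that of mA19d#4 was, and these libraries are outside the comparison too.

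**Figure D2:**
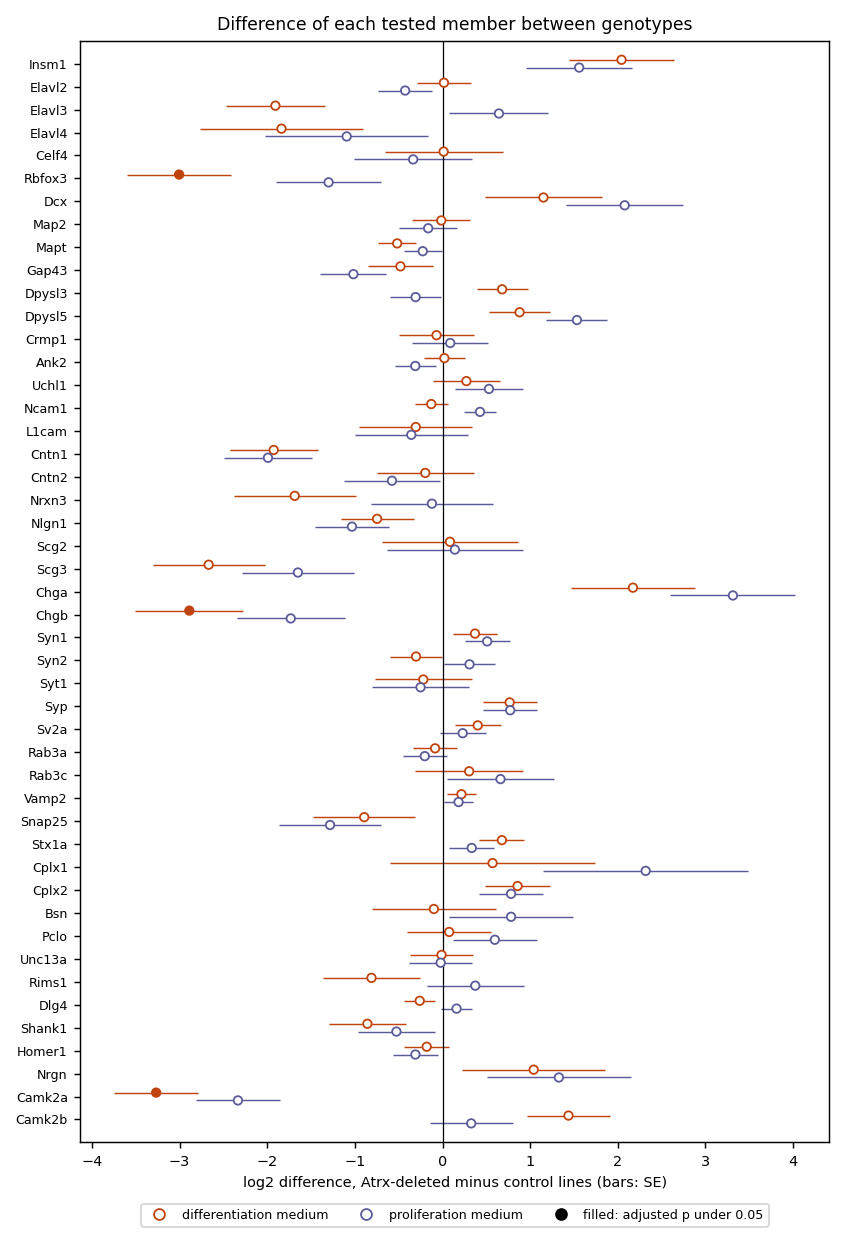
Log2 difference of Atrx-deleted minus control lines for the 47 tested members in differentiation medium (orange) and proliferation medium (violet); bars are standard errors and filled points passed the test. The 3 filled points are Camk2a at -3.27, Rbfox3 at -3.01 and Chgb at -2.89, all in differentiation medium.

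Between media, no member passed in the Atrx-deleted lines, where 0.083% of all tested genes did. Without adjustment 8 members had a p under 0.05, against 14.8% of all tested genes, and libraries did not overlap for 4 of 47 (Mapt, Cntn2, Scg2 and Dlg4), against 16.5% of all tested genes. The median was 0.21, with 28 positive and 19 negative, against 0.01 over all tested genes. Without the mA19d#7 differentiation library Chgb, Nlgn1 and Nrxn3 rose and Dlg4 fell, where 2.22% of all genes changed, and 1 member passed without the mA16d#4 proliferation library. With the line as a block 0 members passed, where 0.0383% of all genes did.

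In the control lines 3 members rose after 8 days of differentiation and none fell: Elavl3, Nrxn3 and Mapt. They were 6.38% of the 47, where 4.51% of all tested genes changed and 1.95% rose. At an unadjusted p under 0.05 there were 12 members, against 19.9% of all tested genes, and the libraries of the media did not overlap for 33 of 47, against 61.3% of all tested genes. The median log2 difference was 0.33, with 32 members positive and 15 negative, against a median of -0.01 over all tested genes. With the line as a block, 5 members changed, where 3.11% of all genes did: Nrxn3, Mapt, Syn2 and Dcx rose, Camk2b fell, and Elavl3 missed the threshold at an adjusted p of 0.0531. With the mA19d#7 differentiation library left out 7 members changed, where 9.24% of all genes did. Elavl3, Nrxn3, Mapt, Chgb, Dpysl5 and Syn2 rose and Camk2b fell. That library is outside this comparison, so the differences stayed the same and the shared estimate of spread changed. The count was 0 without any 1 of the 4 control libraries or the mA19d#4 proliferation library, 1 without the mA19d#7 proliferation library and 5 without the mA19d#4 differentiation library.

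In the test of the difference between these responses no member passed with limma, where 0.00639% of all tested genes did. Without adjustment 2 members had a p under 0.05, against 7.02% of all tested genes: Elavl3 with a difference of responses of -2.55 (adjusted p = 0.512) and Dpysl3 with 0.99 (adjusted p = 0.670). Without the mA19d#7 differentiation library 0 members passed, where 0.0192% of all genes did.

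The response of each line was read as the log2 level in differentiation minus that in proliferation medium, with 1 library per medium and no test. In mA16d#4, 5 of the 47 members were higher by at least 1, against 6.2% of all tested genes, and 6 were lower, against 8.17%. In mA19d#4, 11 were higher, against 5.2% of all tested genes, and 3 lower, against 7.73%. With the library labelled mA19d#7, 13 were higher, against 9.35%, and 9 lower, against 9.2%. In the control lines the counts were alike, with 12 higher (against 9.82%) and 3 lower (against 10.5%) in NSC#1, and 13 higher (against 7.75%) and 2 lower (against 8.13%) in NSC#2. The median response of the members was 0.17, 0.31 and 0.07 in the Atrx-deleted lines and 0.19 and 0.35 in the control lines, where over all tested genes it lay between -0.01 and 0.02. The pair of libraries behind the mA19d#7 values is the one whose label is in doubt.

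**Figure D3:**
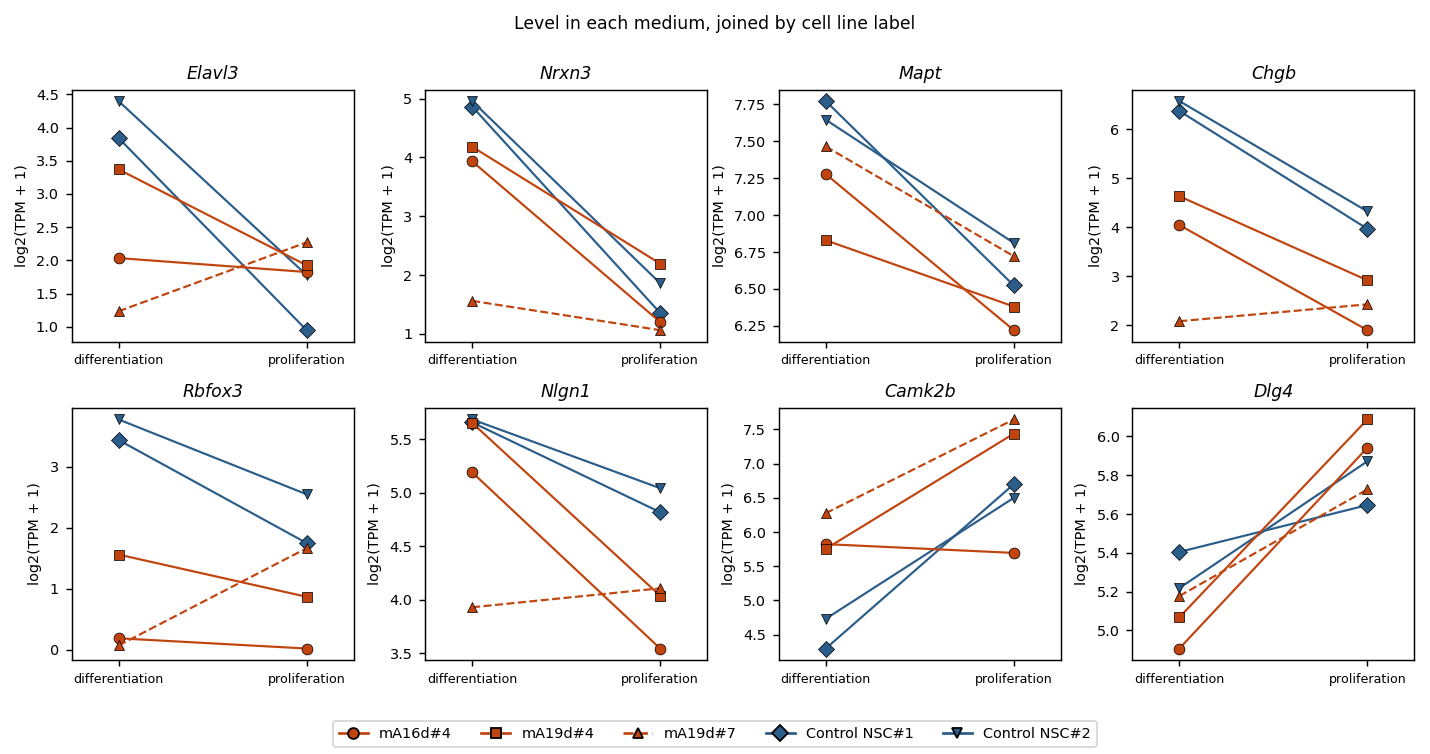
Level of 8 members as log2(TPM + 1) in differentiation and proliferation medium, with the libraries of each line joined and the label mA19d#7 dashed. In Chgb mA16d#4, mA19d#4 and both control lines lie higher in differentiation medium, while mA19d#7 has 3.24 TPM there and 4.38 TPM in proliferation medium.

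Among the transcription factors, Insm1, a zinc-finger factor of neuronal and endocrine progenitors, was the only one of the 4 to pass the filter. It had 10.3, 13.8 and 49.2 TPM in Atrx-deleted lines in differentiation medium, against 3.61 and 4.30 TPM in control lines. Insm1 had 11.9, 5.05 and 6.93 TPM in Atrx-deleted lines in proliferation medium, against 1.07 and 3.03 TPM in control lines. All Atrx-deleted libraries lay above all control libraries of the same medium, and the highest value was that of the mA19d#7 differentiation library. The log2 difference was 2.04 in differentiation medium (SE 0.604, limma adjusted p = 0.0998) and 1.56 in proliferation medium (adjusted p = 0.296), and neither passed. Nhlh1 and Nhlh2, helix-loop-helix factors of young neurons, were at most 1.08 and 0.478 TPM in any library. Myt1l, a repressor of non-neuronal genes in neurons, reached 3.89 TPM in NSC#2 in differentiation medium and at most 0.401 TPM in the other 9 libraries.

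Rbfox3 encodes NeuN, the splicing factor used to stain mature neurons (ENSMUSG00000025576, chromosome 11, 118489762 to 118911597, GRCm38). It had 0.138, 1.95 and 0.0488 TPM in Atrx-deleted lines in differentiation medium, against 9.88 and 12.7 TPM in control lines. Rbfox3 had 0.0129, 0.825 and 2.17 TPM in Atrx-deleted lines in proliferation medium, against 2.37 and 4.86 TPM in control lines. Each Atrx-deleted library was below each control library of its medium, and the control lines held more in differentiation than in proliferation medium. Rbfox3 fell by 3.01 on the log2 scale in differentiation medium (SE 0.595, limma adjusted p = 0.0303), with means of 0.713 ± 1.07 TPM in Atrx-deleted lines (SD, n = 3) and 11.3 ± 2.03 TPM in control lines (SD, n = 2). The adjusted p was 0.0402 without the mA19d#7 differentiation library and 0.194 when the deposited log2 values were tested directly. Permuting the lines exactly (two-sided) gave p = 0.1, the smallest value that 2 against 3 allows, and the same holds for Chgb and Camk2a.

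Elavl3, the neuronal HuC protein that binds AU-rich mRNA (ENSMUSG00000003410, chromosome 9, 22015005 to 22052023), was the RNA-binding gene that rose in the control lines. In Atrx-deleted lines it had 3.10, 9.34 and 1.35 TPM in differentiation medium, against 2.54, 2.80 and 3.83 TPM in proliferation medium. In control lines it had 13.4 and 20.1 TPM in differentiation medium, against 0.932 and 2.43 TPM in proliferation medium. The Atrx-deleted libraries overlapped between media, with less in differentiation medium in mA19d#7, and the control libraries separated. Elavl3 rose by 2.76 on the log2 scale in the control lines (SE 0.619, limma adjusted p = 0.0359), and the exact permutation p of 2 against 2 libraries was 0.333, the smallest it allows. The difference between genotypes in differentiation medium was -1.91 (adjusted p = 0.1), which did not pass.

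Elavl4, the related HuD protein, separated libraries in another way. It had 7.11, 28.5 and 1.31 TPM in Atrx-deleted lines in differentiation medium, against 29.7 and 27.1 TPM in control lines. Elavl4 had 3.77, 20.8 and 21.9 TPM in Atrx-deleted lines in proliferation medium, against 28.8 and 26.3 TPM in control lines. The 3 low libraries were both mA16d#4 libraries and the differentiation library labelled mA19d#7, while the other Atrx-deleted libraries lay between 20.8 and 28.5 TPM. The genotype difference was -1.84 in differentiation medium (adjusted p = 0.299) and -1.09 in proliferation medium (adjusted p = 0.650). Elavl2, another neuronal member of the family in this set, ran from 7.85 to 18.7 TPM over all libraries, and Celf4, a neuronal splicing factor, from 0.144 to 5.39 TPM.

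**Figure D4:**
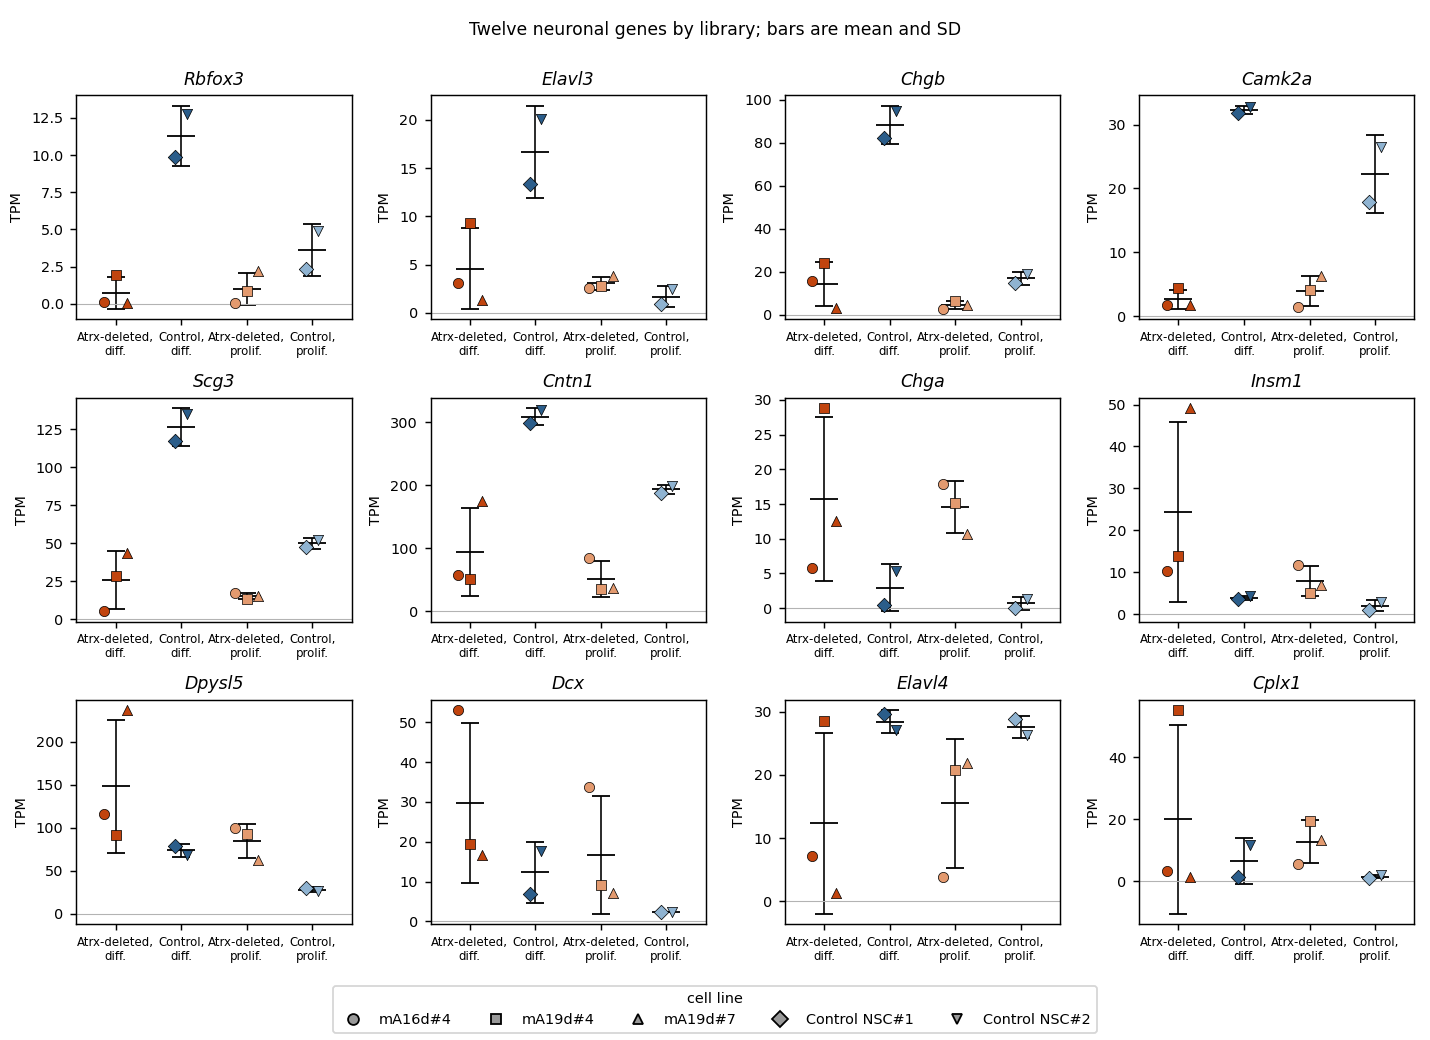
Level in TPM of 12 members in each library, by group, with the symbol for the line; the bars are the mean and SD of the 3 Atrx-deleted or 2 control libraries. Camk2a lies at 1.74 to 4.39 TPM in Atrx-deleted lines in differentiation medium and at 31.8 and 32.8 TPM in control lines, and in Elavl4 both mA16d#4 libraries and the mA19d#7 differentiation library lie below 10 TPM.

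Of the cytoskeletal and growth cone genes, 1 of 9 tested rose in the control lines with differentiation, where 1.95% of all tested genes did. None passed between genotypes in the unweighted model of all 10 libraries, and 1, Dpysl5, passed in proliferation medium without the mA19d#7 differentiation library and with a weight per group. Mapt, the axonal microtubule protein tau (ENSMUSG00000018411, chromosome 11, 104231390 to 104332090), had 154, 113 and 176 TPM in Atrx-deleted lines in differentiation medium, against 73.6, 82.4 and 105 TPM in proliferation medium. Control lines had 218 and 199 TPM of Mapt in differentiation medium, against 91.0 and 111 TPM in proliferation medium. Every line held more in differentiation medium, and the media did not overlap in either genotype. The gain was 0.75 on the log2 scale in the Atrx-deleted lines (adjusted p = 0.144), which did not pass, and 1.04 in the control lines (SE 0.238, limma adjusted p = 0.0384).

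Dcx, a microtubule protein of migrating young neurons, had 53, 19.5 and 16.7 TPM in Atrx-deleted lines in differentiation medium, against 6.86 and 17.7 TPM in control lines. Dcx had 33.7, 9.08 and 7.17 TPM in Atrx-deleted lines in proliferation medium, against 2.44 and 2.28 TPM in control lines. The genotypes were apart in proliferation medium and overlapped in differentiation medium, and mA16d#4 was highest in both. Neither difference passed, at 2.08 in proliferation medium (SE 0.666, adjusted p = 0.216) and 1.15 in differentiation medium (adjusted p = 0.367). With the line as a block Dcx rose by 1.85 in the control lines with differentiation (SE 0.383, adjusted p = 0.0495), and the adjusted p without the block was 0.184.

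Map2, the dendritic microtubule protein, had the highest level of the members in 9 of the 10 libraries, while Uchl1 at 478 TPM and Ank2 at 367 TPM were above it in the mA19d#7 differentiation library. It had 903, 760.1 and 358 TPM in Atrx-deleted lines in differentiation medium, against 619.5 and 646 TPM in control lines. Map2 had 553, 430.2 and 536 TPM in Atrx-deleted lines in proliferation medium, against 559 and 569 TPM in control lines. The lowest value was that of the mA19d#7 differentiation library, and the genotype difference was -0.01 in differentiation medium (adjusted p = 0.988) and -0.16 in proliferation medium (adjusted p = 0.875). Gap43, a growth cone protein, had 17, 24 and 42.9 TPM in Atrx-deleted lines in differentiation medium, against 33.7 and 40.0 TPM in control lines. In proliferation medium Gap43 had 34.0, 18.5 and 20.6 TPM in Atrx-deleted lines, against 58.8 and 40.2 TPM in control lines, where the genotypes were apart (-1.02, adjusted p = 0.273).

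Dpysl5, a collapsin response mediator protein of developing neurons, had 117, 91.9 and 236 TPM in Atrx-deleted lines in differentiation medium, against 79.1 and 68.7 TPM in control lines. Dpysl5 had 99.5, 93.4 and 62.3 TPM in Atrx-deleted lines in proliferation medium, against 30.3 and 26.1 TPM in control lines. All Atrx-deleted libraries lay above the control libraries of their medium, with a log2 difference of 0.88 in differentiation medium (adjusted p = 0.194) and 1.53 in proliferation medium (SE 0.349, adjusted p = 0.0969). Without the mA19d#7 differentiation library the same difference of 1.53 in proliferation medium passed with a smaller SE (0.214, adjusted p = 0.0161). Dpysl5 then also rose by 1.36 in the control lines with differentiation. That library is in neither comparison and enters them through the shared estimate of spread. Its relatives Dpysl3 and Crmp1 ran from 128 to 311 TPM and from 25.1 to 91.2 TPM over all libraries. Ank2, which anchors membrane proteins to the cytoskeleton, ran from 242 to 449 TPM, and Uchl1, an abundant neuronal ubiquitin hydrolase, from 122 to 478 TPM. Dpysl3, Crmp1, Ank2 and Uchl1 passed in no comparison in the unweighted model of all 10 libraries.

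All 6 tested adhesion genes had a negative genotype difference in differentiation medium, where 7619 of 15660 tested genes did. Their median was -0.53, with a range from -1.93 to -0.13, and 0 of 6 passed. Cntn1, a contactin of axons and oligodendrocyte precursors, had 57.1, 51.8 and 176 TPM in Atrx-deleted lines in differentiation medium, against 299.6 and 319 TPM in control lines. Cntn1 had 85.2, 35.0 and 36.7 TPM in Atrx-deleted lines in proliferation medium, against 188 and 199 TPM in control lines. The genotypes did not overlap in either medium, and the mA19d#7 differentiation library was the Atrx-deleted library nearest to the controls. The log2 difference was -1.93 in differentiation medium (SE 0.501, adjusted p = 0.0693) and -1.99 in proliferation medium (SE 0.501, adjusted p = 0.131). Without that library Cntn1 fell by 2.48 in differentiation medium (SE 0.354, adjusted p = 0.0141). The sum of 10 listed markers of the oligodendrocyte lineage in that medium was 2547, 5236 and 2059 TPM in Atrx-deleted lines, against 4077 and 4429 TPM in control lines, with Mag below 1 TPM in all libraries, and its part in the result was not tested.

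Nrxn3, a presynaptic neurexin (ENSMUSG00000066392, chromosome 12, 88722876 to 90334935), had 14.3, 17.2 and 1.95 TPM in Atrx-deleted lines in differentiation medium, against 1.30, 3.57 and 1.09 TPM in proliferation medium. Control lines had 28.2 and 30.1 TPM of Nrxn3 in differentiation medium, against 1.56 and 2.63 TPM in proliferation medium. Libraries of mA16d#4, mA19d#4 and both control lines were far apart between media, while both libraries labelled mA19d#7 were low. Nrxn3 rose by 3.31 on the log2 scale in the control lines (SE 0.763, limma adjusted p = 0.0391), which was the largest called difference between media among the members. In the Atrx-deleted lines the difference was 1.74 (adjusted p = 0.242), and without the mA19d#7 differentiation library it was 2.57 (SE 0.383, adjusted p = 0.0218).

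Nlgn1, a postsynaptic partner of neurexins, had 35.5, 49.3 and 14.2 TPM in Atrx-deleted lines in differentiation medium, against 49.5 and 50.5 TPM in control lines. Nlgn1 had 10.7, 15.4 and 16.2 TPM in Atrx-deleted lines in proliferation medium, against 27.2 and 32 TPM in control lines. Atrx-deleted libraries were lower in both media, with -0.75 (adjusted p = 0.351) in differentiation and -1.03 (adjusted p = 0.317) in proliferation medium. Ncam1, an adhesion molecule of neural cells in general, ran from 123 to 227 TPM. L1cam, Cntn2 and Cntnap2, adhesion molecules of axons, were at most 4.43, 2.11 and 0.943 TPM.

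The dense-core vesicle genes did not move as a group: Chgb and Scg3 were lower and Chga higher in Atrx-deleted lines of both media, and only Chgb in differentiation medium passed. Chgb, a granin that is stored in dense-core vesicles (ENSMUSG00000027350, chromosome 2, 132781278 to 132795079), had 15.5, 23.9 and 3.24 TPM in Atrx-deleted lines in differentiation medium, against 82.1 and 94.6 TPM in control lines. Chgb had 2.73, 6.56 and 4.38 TPM in Atrx-deleted lines in proliferation medium, against 14.7 and 19.1 TPM in control lines. The genotypes were apart in both media, with means of 14.2 ± 10.4 TPM in Atrx-deleted lines (SD, n = 3) and 88.3 ± 8.86 TPM in control lines (SD, n = 2) in differentiation medium. Chgb fell by 2.89 on the log2 scale in that medium (SE 0.618, limma adjusted p = 0.0388), and by 2.14 without the mA19d#7 differentiation library (SE 0.351, adjusted p = 0.0181). In proliferation medium the difference was -1.73 (adjusted p = 0.256), which did not pass.

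Chga, the founding granin, had 5.79, 28.8 and 12.5 TPM in Atrx-deleted lines in differentiation medium, against 0.512 and 5.36 TPM in control lines. Chga had 18, 15.1 and 10.6 TPM in Atrx-deleted lines in proliferation medium, against 0.0211 and 1.31 TPM in control lines. Its order was the reverse of that of Chgb, with every Atrx-deleted library above every control library of its medium. The log2 difference was 2.17 in differentiation medium (SE 0.713, adjusted p = 0.128) and 3.31 in proliferation medium (SE 0.713, adjusted p = 0.0843), and neither passed. The mA16d#4 value in differentiation medium, 5.79 TPM, was close to that of NSC#2, 5.36 TPM.

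Scg3, a granin-binding protein of secretory granules, had 5.06, 28.7 and 43.4 TPM in Atrx-deleted lines in differentiation medium, against 118 and 135 TPM in control lines. Scg3 had 17.4, 13.2 and 15.3 TPM in Atrx-deleted lines in proliferation medium, against 47.4 and 52.3 TPM in control lines. No Atrx-deleted library reached a control library, and mA16d#4 was the Atrx-deleted line that held less Scg3 in differentiation than in proliferation medium. The log2 difference was -2.67 in differentiation medium (SE 0.639, adjusted p = 0.0544) and -1.65 in proliferation medium (adjusted p = 0.295). Without the mA19d#7 differentiation library Scg3 fell by 3.24 in differentiation medium (SE 0.567, adjusted p = 0.0205). Scg2, a precursor of secretoneurin, was at most 8.63 TPM, in NSC#2 in differentiation medium.

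The synaptic vesicle proteins had a median log2 difference of 0.26 in differentiation and 0.27 in proliferation medium over 8 tested genes. Of these, 0 passed in any comparison in the unweighted model of all 10 libraries without the line as a block. Syn1, a synapsin that tethers vesicles, had 23.2, 18.9 and 15.6 TPM in Atrx-deleted lines in differentiation medium, against 15.0 and 14.0 TPM in control lines. In proliferation medium Syn1 had 23.9, 19.7 and 26.2 TPM in Atrx-deleted lines, against 19.3 and 13.2 TPM in control lines. These ranges were close to each other without overlapping, with differences of 0.37 (adjusted p = 0.448) and 0.51 (adjusted p = 0.412). Syp, synaptophysin, had 21.9, 28.1 and 15.7 TPM in Atrx-deleted lines in differentiation medium, against 9.49 and 15.5 TPM in control lines. In proliferation medium Syp had 22.2, 29.0 and 27.8 TPM in Atrx-deleted lines, against 12.5 and 17.8 TPM in control lines. Its difference was 0.77 in each medium (adjusted p = 0.198 in differentiation and 0.307 in proliferation medium), with no overlap in either medium.

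Syt1, the calcium sensor of fast release, was low and overlapped between genotypes, with 4.71, 4.10 and 1.60 TPM in Atrx-deleted lines in differentiation medium, against 2.52 and 5.90 TPM in control lines. Syt1 had 2.92, 5.67 and 12.2 TPM in Atrx-deleted lines in proliferation medium and 8.07 and 6.69 TPM in control lines. Syn2, another synapsin, had 126 and 113 TPM in control lines in differentiation medium, against 53.6 and 56.8 TPM in proliferation medium. That gain of 1.10 had an adjusted p of 0.0836, and with the line as a block it passed (SE 0.226, adjusted p = 0.0495). It also passed without the mA19d#7 differentiation library and with only the compared groups. Vamp2, the vesicle SNARE that also serves exocytosis outside neurons, ran from 167 to 262 TPM over all libraries. Sv2a and Rab3a ran from 12.8 to 30.4 TPM and from 17.3 to 32.2 TPM, while Sv2b and Rab3c, members of the same families, were at most 1.97 and 3.22 TPM.

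Among the 8 release and active zone genes 0 passed in any comparison in the unweighted model of all 10 libraries. Pclo passed in the control lines with differentiation when the line was a block and the mA19d#7 differentiation library was left out (1.41), and Pclo and Rims1 passed there with a weight per group. Snap25 had 0.497, 3.38 and 0.00705 TPM in Atrx-deleted lines in differentiation medium, against 2.74 and 2.24 TPM in control lines. In proliferation medium Snap25 had 0.0506, 0.460 and 0.0171 TPM in Atrx-deleted lines, against 2.46 and 1.30 TPM in control lines, and the difference was -1.28 (adjusted p = 0.370). The lowest of the 10 values was that of the mA19d#7 differentiation library. It and the other mA19d#7 value, 0.0171 TPM, were near the floor of the table, so their order carries little. Cplx1, a complexin that clamps and promotes fusion, had 3.45, 55.0 and 1.34 TPM in Atrx-deleted lines in differentiation medium, against 1.47 and 11.8 TPM in control lines. In proliferation medium Cplx1 had 5.72, 19.4 and 13.3 TPM in Atrx-deleted lines, against 1.14 and 1.95 TPM in control lines. The libraries of mA19d#4, and the mA19d#7 library in proliferation medium, were the highest Atrx-deleted ones, as in Elavl4, and the difference of 2.32 in proliferation medium did not pass (SE 1.17, adjusted p = 0.417). Cplx2, the other complexin, ran from 61.3 to 198 TPM in Atrx-deleted lines and from 32.6 to 61.0 TPM in control lines over both media, with 0.86 (adjusted p = 0.229) in differentiation and 0.78 (adjusted p = 0.386) in proliferation medium. Stx1a, a syntaxin, ran from 10.9 to 22.8 TPM over all libraries. The active zone genes Bsn, Pclo, Unc13a and Rims1 lay between 1.05 and 18.1 TPM.

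Of the 6 postsynaptic genes, the kinase subunits of CaMKII differed most, with differences of opposite sign in differentiation medium. Camk2a, the alpha subunit that is abundant in forebrain excitatory neurons (ENSMUSG00000024617, chromosome 18, 60925618 to 60988152), had 1.74, 4.39 and 1.80 TPM in Atrx-deleted lines in differentiation medium, against 31.8 and 32.8 TPM in control lines. Camk2a had 1.47, 4.18 and 6.25 TPM in Atrx-deleted lines in proliferation medium, against 17.9 and 26.5 TPM in control lines. The genotypes were apart in both media, with means of 2.64 ± 1.52 TPM in Atrx-deleted lines (SD, n = 3) and 32.3 ± 0.665 TPM in control lines (SD, n = 2) in differentiation medium. Camk2a fell by 3.27 on the log2 scale in that medium (SE 0.476, limma adjusted p = 0.0104), the largest genotype difference among members that passed. It fell by 3.11 without the mA19d#7 differentiation library (adjusted p = 0.0182). In proliferation medium the difference of -2.34 did not pass (SE 0.476, adjusted p = 0.0736).

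Camk2b, the beta subunit, had 55.6, 53 and 76.5 TPM in Atrx-deleted lines in differentiation medium, against 18.7 and 25.6 TPM in control lines. Camk2b had 50.8, 172 and 199 TPM in Atrx-deleted lines in proliferation medium, against 103 and 89.5 TPM in control lines. The genotypes were apart in differentiation medium, with Atrx-deleted lines higher, and overlapped in proliferation medium (1.44, adjusted p = 0.130, and 0.33, adjusted p = 0.811). In the control lines Camk2b had a difference of -2.09 between differentiation and proliferation medium (adjusted p = 0.0514), and with the line as a block it fell (SE 0.408, adjusted p = 0.0443). Nrgn, a calmodulin-binding protein of dendritic spines, had 4.80, 16.2 and 8.61 TPM in Atrx-deleted lines in proliferation medium, against 1.85 and 4.42 TPM in control lines (1.33, adjusted p = 0.520). In differentiation medium Nrgn had 0.0326, 6.20 and 4.18 TPM in Atrx-deleted lines and 0.00561 and 1.68 TPM in control lines, and the genotypes overlapped. Dlg4, the scaffold PSD-95, had 29.0, 32.5 and 35.2 TPM in Atrx-deleted lines in differentiation medium, against 60.5, 67.0 and 51.9 TPM in proliferation medium, a difference of -0.87 that did not pass (adjusted p = 0.0820). Without the mA19d#7 differentiation library Dlg4 fell by 0.93 (SE 0.164, adjusted p = 0.0326). Homer1, a scaffold, ran from 10.3 to 20.3 TPM, and Shank1, another, was at most 2.92 TPM.

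Further genes of the same pathways were read from lists. Of 26 tested further neuronal genes, 0 passed between genotypes in proliferation medium. In differentiation medium 1 of them rose, where 1.55% of all tested genes did. It was the neurofilament gene Nefl (1.96, adjusted p = 0.0460). Nefl was at 2.91, 2.60 and 3.28 TPM in Atrx-deleted lines and near the floor of the table in control lines. Leaving out the mA19d#7 differentiation library, the gene that rose was Nsg1, a protein of neuronal endosomes, in place of Nefl. In the control lines 1 rose with differentiation, the vesicle motor Kif1a (0.63, adjusted p = 0.0442), where 1.95% of all tested genes rose. Among 34 tested further synaptic genes, Rimbp2 fell in Atrx-deleted lines in both media. Rimbp2, an active zone protein that links Rims proteins to calcium channels, had at most 0.0131 TPM in all 6 Atrx-deleted libraries and 8.60 to 15.4 TPM in the 4 control libraries, with -3.78 in differentiation medium (SE 0.351, adjusted p = 0.00127) and -3.48 in proliferation medium (adjusted p = 0.00399). The median over the 34 genes was -0.40 in differentiation medium, with 27 negative, against 0.02 over all tested genes, and -0.25 with 22 negative without the mA19d#7 differentiation library. Of all 15660 tested genes, 7619 were negative in that medium, and 7568 without that library. In the control lines the neurexin Nrxn2 rose by 1.24 (adjusted p = 0.0162) and Amph, an endocytic protein, fell by 0.91 (adjusted p = 0.0397) with differentiation. Of 9 repressors of neuronal genes, Rcor1, a partner of Rest, fell by 1.16 in the control lines with differentiation (adjusted p = 0.0137), and Rest itself was between 34.5 and 46.2 TPM in all 10 libraries.

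Beside the genes that fell in Atrx-deleted lines in differentiation medium, 9 of 10 cycling-cell markers rose, with a median of 2.18, and 0 fell. Of all tested genes, 1.55% rose and 1.33% fell there. In the control lines all 10 of these markers fell with differentiation, with a median of -2.73, beside the rise of Elavl3, Nrxn3 and Mapt. Of all tested genes, 2.56% fell and 1.95% rose in that comparison. Of 10 astrocyte markers, 1 fell in Atrx-deleted lines in differentiation medium (Apoe), and 4 rose in control lines with differentiation (Slc1a2, Slc1a3, Fgfr3 and Apoe). The same counts held for both lists without the mA19d#7 differentiation library. The part of cycling and astrocyte-like cells in the results on neuronal genes was not tested.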

How the data were processed

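Expression came from 1 table of log2 values deposited by the authors, for libraries of total RNA that were aligned with STAR to mm10, per the submitters' processing notes. Tool versions, annotation and quantifier: not given in the sources used here. The design had assumed linear TPM. All libraries hold the same sorted values, with a minimum of -8 shared by 1213 genes, and back-transformed values sum to 997524. They were therefore read as quantile-normalised log2 TPM and back-transformed. Depth is unknown, and shifts in total RNA are invisible in such values.

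The limma model (limma 3.58.1, R 4.3.3, mean-variance trend) took log2(TPM + 1) of all 10 libraries as 4 group means, with 6 residual degrees of freedom. The filter asked for 1 TPM or more in 2 or more libraries. P-values were adjusted by Benjamini-Hochberg over every tested gene, separately for each of 5 comparisons. The members and all gene lists were chosen with earlier results of these data known.

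Values in every library are given for members past the test in any comparison, for those with a group mean of at least 5 TPM, a genotype difference of at least 1 (log2) and no overlap, and for 10 always shown (Dcx, Map2, Rbfox3, Stmn2, Gap43, Elavl3, Snap25, Syn1, Syp and Syt1), with Stmn2 given by its maximum. Library values of Syn2 and Dlg4 were added after they were seen. Some genes of the lists are not reported here.

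The same lines were sampled in both media, so the line pairs the libraries by design. Deviations of paired libraries from their group means correlated with r = 0.159 in mA16d#4, 0.404 in mA19d#4, -0.194 in mA19d#7 and 0.0624 in the control lines. Fits with the line as a fixed and as a random block were run beside the main one. Where no kind is named, the block is fixed. Other pseudocounts, filters and limma settings were also tried, and each library or line was left out. The fit was also run on simulated data with independent noise, and its outcome is not reported here. That simulation held no line pairs and no library that stands apart, so it cannot speak to either. Positions are from GENCODE M21 (GRCm38) and promoter windows from RefSeq (GRCm38.p6).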

Additional observations from a re-analysis of the deposited data

How the results depend on the processing

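Testing the log2 values as deposited, weighting the groups by their spread, and combining the block with the loss of the mA19d#7 differentiation library were chosen after seeing the data. In each case the cause was not tested. For Atrx-deleted against control lines in proliferation medium (0 members passed), 1 passed with a pseudocount of 5 (0.466% of all genes), 1 with only the compared groups (0.396%), 6 with a weight per group (4.29%), and 0 to 4 with a library or line left out. In differentiation medium (3 passed), 1 passed with a pseudocount of 0.1 (2.85% of all genes), 1 without the filter (1.47%), 0 with only the compared groups (0.0128%), 1 with the deposited log2 values (2.78%), 5 with a weight per group (3.04%), and 0 to 5 with a library or line left out. For the medium in Atrx-deleted lines (0 passed), the line as a replicate block without the mA19d#7 differentiation library gave 4 (2.11% of all genes), and leaving out a library or line gave 0 to 4. For the medium in control lines (3 passed), 0 passed without the filter (2.35% of all genes), 1 without the trend (3.58%), 10 with only the compared groups (13.3%), 1 with the deposited log2 values (4.4%), 11 of 47 with a weight per group (23.4%, against 19.1%), and 0 to 7 with a library or line left out. With the line as a replicate block 5 passed (3.11%), 2 of them shared with the 3, and 10 passed with the block and without that library (11.7%). For the interaction 0 passed under all alternatives, which includes 0 to 0 with a library or line left out. With the line as a random block, 4 members passed for the medium in control lines (5.28% of all genes). Neither block alone changed another count, and the fixed block does not cover the genotype comparisons. Camk2a in differentiation medium passed in 21 of 26 alternatives and missed without either control line, without either control differentiation library and with only the compared groups (adjusted p from 0.00323 to 0.277 over all). Rbfox3 passed in 13 of 26 (0.0105 to 0.337) and Chgb in 11 of 26 (0.0181 to 0.419). In control lines Elavl3 passed in 16 of 28 (0.00196 to 0.641), Mapt in 18 of 28 (0.00233 to 0.737) and Nrxn3 in 14 of 28 (0.00139 to 0.678). With 2 control libraries per medium and unknown depth, the size of a difference rests on few values.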
